A study of Mus musculus with 6 samples.

Results

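Genomic imprinting was examined in subcutaneous white adipose tissue (scWAT) through 36 imprinted genes of 17 clusters, out of 55401 genes counted. *Mest*, *Nnat* and *Klf14* were chosen from their values in these same libraries, where their counts differed between the groups, so their levels and fold changes are given as a description with no test. The other 33 genes were listed by symbol as known imprinted genes, in a list written with earlier results of these data known. All 36 were found, 30 passed the filter on low counts, and 6 (*Usp29*, *Igf2*, *Phlda2*, *Magel2*, *Snurf* and *Zdbf2*) did not. Of the 30, only *Klf14* reached the filter's cutoff in the control libraries and in none of the others.

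The scWAT total RNA came from 3 control males, floxed at *Yap* and at *Taz* but without Cre (YT-FF; WT in the sample labels), and from 3 males that had both floxed genes and *Adipoq*-driven Cre (YT-AKO). All were 8 weeks old and lived at room temperature. The *Adipoq* promoter drives Cre in mature adipocytes, so the other cells of the depot keep both genes, and the samples are whole tissue: fewer cells of a type and less RNA per cell cannot be told apart. The labels do not say that replicates came from separate mice, as the study's methods do, and p-values measure the spread between these samples. The comparison asks what the loss of YAP and TAZ, the co-activators of the Hippo pathway, changes in scWAT, here for imprinted genes.

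Each library held 17740987 to 21838493 counted fragments, and values in CPM (counts relative to a common library total) are scaled by TMM factors, which were 1.07 to 1.16 in YT-FF and 0.777 to 0.955 in the other group. Of the targeted genes, *Yap1* was lower in the YT-AKO-labelled libraries (CPM 57 to 69 against 29 to 37.7, edgeR adjusted p = 0.0179). *Wwtr1*, which encodes TAZ, went against the label, at 75.8 to 98.6 CPM in YT-FF and 132.7 to 175.1 CPM in the YT-AKO-labelled libraries (edgeR adjusted p = 0.022). Every direction below follows labels that *Wwtr1* counts do not match. For protein, the study reports from immunoblots a clear decrease of YAP and TAZ in scWAT of YT-AKO mice. It does not state whether those were the mice of these libraries. The counts sum all exons of a gene, and whether they include the deleted part was not tested. *Ucp1*, the uncoupling protein of thermogenic fat, was at 3.68 to 9.82 CPM in YT-FF and 143.5 to 394.3 CPM in the YT-AKO-labelled libraries. Fold changes also followed gene length: across all tested genes the median log2 fold change was 0.57 for exons under 2 kb and -0.54 for exons of 10 kb or more, and a correction for length is given beside the calls it ends or makes. The library YT-AKO 2 had the lowest TMM factor and stood apart from the other libraries of its group for *Gnas*, *Igf2r*, *Impact*, *Rian* and *Slc22a18*.

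An imprinted gene is transcribed mainly from the copy inherited from one parent. The choice is set in the germ line by methylation of CpG sites in control regions, and many imprinted genes lie in clusters in which a long non-coding RNA or an insulator governs several neighbours. Several of them regulate growth and the size of fat depots. Counts do not separate the parental copies, so the allele named for each gene is background knowledge, and neither methylation nor allelic expression was measured here.

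Start sites of imprinted genes are often rich in CpG. RefSeq windows of 300 bases (250 before to 50 after the start, GRCm38.p6) were available for 28 of the 36 genes. The window with the most CpG sites held a median of 13 CpG per imprinted gene, against 8 over 27025 genes. Taking the richest window favours genes with several windows. Over single windows the median was 11 for imprinted genes and 7 for all. The windows below belong to *Nnat*, *Mest*, *Peg3* and *Plagl1*, 4 paternally expressed genes that were lower in the YT-AKO-labelled libraries, and the capitals mark each CpG.

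Nnat chr2:157559828-157560127 (+): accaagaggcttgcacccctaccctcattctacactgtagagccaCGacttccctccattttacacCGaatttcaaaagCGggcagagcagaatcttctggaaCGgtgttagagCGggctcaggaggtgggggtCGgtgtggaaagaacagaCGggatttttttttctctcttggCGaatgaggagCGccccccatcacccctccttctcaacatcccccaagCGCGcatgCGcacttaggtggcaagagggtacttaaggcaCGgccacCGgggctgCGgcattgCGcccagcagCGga
Mest chr6:30733256-30733555 (+): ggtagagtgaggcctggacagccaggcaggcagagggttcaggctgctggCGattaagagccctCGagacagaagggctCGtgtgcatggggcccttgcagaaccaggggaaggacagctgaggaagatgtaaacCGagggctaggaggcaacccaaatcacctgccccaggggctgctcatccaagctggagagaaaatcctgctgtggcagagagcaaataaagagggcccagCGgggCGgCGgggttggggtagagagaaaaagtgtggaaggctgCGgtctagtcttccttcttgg
Mest chr6:30737800-30738099 (+): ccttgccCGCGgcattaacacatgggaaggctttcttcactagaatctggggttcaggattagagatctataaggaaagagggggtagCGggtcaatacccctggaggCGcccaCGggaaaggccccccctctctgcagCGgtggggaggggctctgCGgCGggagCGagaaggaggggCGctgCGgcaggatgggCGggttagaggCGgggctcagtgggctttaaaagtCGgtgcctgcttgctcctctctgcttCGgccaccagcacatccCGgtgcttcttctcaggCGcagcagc
Peg3 chr7:6730370-6730669 (-): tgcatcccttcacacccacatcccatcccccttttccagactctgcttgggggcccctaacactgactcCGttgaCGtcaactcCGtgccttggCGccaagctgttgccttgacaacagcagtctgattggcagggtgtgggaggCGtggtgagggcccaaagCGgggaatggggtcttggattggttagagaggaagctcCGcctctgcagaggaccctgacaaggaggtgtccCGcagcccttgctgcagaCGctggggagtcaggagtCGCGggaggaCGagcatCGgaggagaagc
Plagl1 chr10:13090582-13090881 (+): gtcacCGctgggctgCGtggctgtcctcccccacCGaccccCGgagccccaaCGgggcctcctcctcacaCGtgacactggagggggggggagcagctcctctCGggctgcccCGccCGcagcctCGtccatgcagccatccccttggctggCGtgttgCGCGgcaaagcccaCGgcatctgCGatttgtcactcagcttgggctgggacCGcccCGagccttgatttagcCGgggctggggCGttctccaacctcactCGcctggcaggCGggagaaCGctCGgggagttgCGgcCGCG

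The *Nnat* window held 17 CpG sites, the *Mest* windows held 8 and 17, the *Peg3* window held 13 and the *Plagl1* window held 26, against a median of 7 over all 32851 windows. *Mest* thus has one start region poorer and one richer in CpG, and the counts, summed over a gene, do not show which was used. The core of the motif of TEAD, the DNA-binding partner of YAP and TAZ, was searched as GGAATG on both strands. It stood in 9 of the 45 windows of imprinted genes (20%) and in 14.7% of all windows. *Peg3* was the only one of the 4 genes shown to hold it, and the facing *Usp29* window overlaps the same bases. The match is a description of the letters and not a site.

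The lead genes were *Mest* and *Klf14*, which lie in one cluster on chromosome 6, and *Nnat* on chromosome 2. *Mest* (chr6:30723547-30748465, plus strand) is a paternally expressed hydrolase linked to the enlargement of fat cells. Its level was 26.3, 49.2 and 80.0 CPM in YT-FF 1 to 3, and 5.05, 0.707 and 4.66 CPM in the YT-AKO-labelled libraries 1 to 3. The mean fell from 51.8 ± 26.9 to 3.47 ± 2.40 CPM (SD, n = 3), a 14.9-fold lower level. The groups did not overlap, and both were uneven: the highest YT-FF library stood 3.04-fold above the lowest, and YT-AKO 2, with 12 counts, 7.15-fold below YT-AKO 1. The log2 fold change was -3.90 (SE 0.681), and it lay between -4.26 and -3.41 with any 1 library left out.

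*Klf14* (chr6:30956023-30959078, minus strand), a maternally expressed zinc finger transcription factor without introns, has its nearer edge 207.6 kb beyond the end of *Mest*. Its counts were 29, 45 and 79 in YT-FF, against 0, 0 and 1 in the YT-AKO-labelled libraries. Those counts were 1.23, 1.97 and 4.06 CPM in YT-FF, and a count of 0 allows up to 3 counts, or 0.174 to 0.177 CPM, in the other group. The summed counts were 153 and 1, a ratio of 119.0 after scaling, with an exact 95% interval from 21.0 to 4730.6 that covers counting error only. In YT-FF, *Klf14* was thus a low gene whose 3 libraries stood in the same order as those of *Mest*.

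Between them lies *Copg2* (chr6:30747554-30896794, minus strand), a subunit of the coatomer of transport vesicles whose exons share 912 bases with those of *Mest* on the other strand. Counting was without strand and left out fragments on shared bases, which make up 23.1% of the exon length of *Mest* and 17.8% of that of *Copg2*. *Copg2* was at 46.8, 57.7 and 65.4 CPM in YT-FF and at 42.6, 41.2 and 48.4 CPM in the YT-AKO-labelled libraries. Its groups overlapped, and it did not pass the test (log2 fold change -0.36, SE 0.173, edgeR adjusted p = 0.153). In the 500 kb on either side of the *Mest* to *Klf14* interval, 10 of 37 other genes were tested, and their median log2 fold change was 0.02. *Cep41*, a centrosomal protein gene, fell by 1.03 and *Tmem209* fell by 0.76 on the log2 scale (edgeR adjusted p = 0.024 and 0.0431), and 2210408F21Rik rose by 1.38 (adjusted p = 0.033). After the length correction *Cep41* still passed (-0.88, adjusted p = 0.0476), while *Tmem209* (-0.35) and 2210408F21Rik (1.14) did not, and *Mkln1* (0.65, adjusted p = 0.049) then passed.

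*Nnat* (chr2:157560078-157562522, plus strand) encodes neuronatin, a small membrane protein of the endoplasmic reticulum known from brain, pancreatic islets and fat, and is transcribed from the paternal copy. Its counts were 38749, 39409 and 34601 in YT-FF, against 1480, 3080 and 4440 in the YT-AKO-labelled libraries. In CPM these were 1648.5, 1728.6 and 1779.2 against 85.9, 181.4 and 262.1. *Nnat* was steady in YT-FF, where its highest library stood 1.08-fold above its lowest, and spread 3.05-fold in the other group. The mean fell from 1718.8 ± 65.9 to 176.5 ± 88.2 CPM (SD, n = 3), a 9.74-fold lower level and a log2 fold change of -3.28 (SE 0.398). After correction for gene length the value was -3.62.

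Per length, *Nnat* was the 17th gene of the whole tissue in YT-FF, at 3573.9 ± 143.6 TPM (counts per length, scaled to the same sum in each library; SD, n = 3). Among the 36 genes, the next in YT-FF were *Peg13* at 65.4 ± 7.15 TPM, *Mest* at 49.4 ± 23.8, *Impact* at 42.1 ± 1.23 and *Copg2* at 41.9 ± 5.92. *Nnat* stood far above the other 35, while the levels of *Mest*, *Impact* and *Copg2* did not differ beyond their spread. TPM levels are not set side by side between the groups, since 79.3% of all tested genes had a lower mean TPM in the YT-AKO-labelled libraries, as had 25 of the 30 tested imprinted genes.

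*Nnat* lies in an intron of *Blcap*, a gene of the same imprinted domain. *Blcap* had 144.0, 159.4 and 186.6 CPM in YT-FF and 98.4, 154.8 and 124.6 CPM in the other group. These overlapped, with a log2 fold change of -0.38 that did not pass the test (SE 0.207, edgeR adjusted p = 0.207). Of 23 other genes within 500 kb of *Nnat*, 13 were tested, with a median log2 fold change of -0.41. *Rbl1*, a relative of the retinoblastoma gene, fell by 1.19 and *Manbal* rose by 0.77 on the log2 scale (edgeR adjusted p = 0.0246 and 0.0391). After the length correction *Rbl1* passed (adjusted p = 0.0295) and *Manbal* did not (0.35, adjusted p = 0.183). Gm14286, a gene near *Nnat*, was at 9.7, 11.8 and 7.1 CPM in YT-FF and 4.47, 0 and 3.66 CPM in the other group. Its groups did not overlap, yet it did not pass the test (log2 fold change -1.81, SE 0.941, edgeR adjusted p = 0.184).

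**Figure D1:**
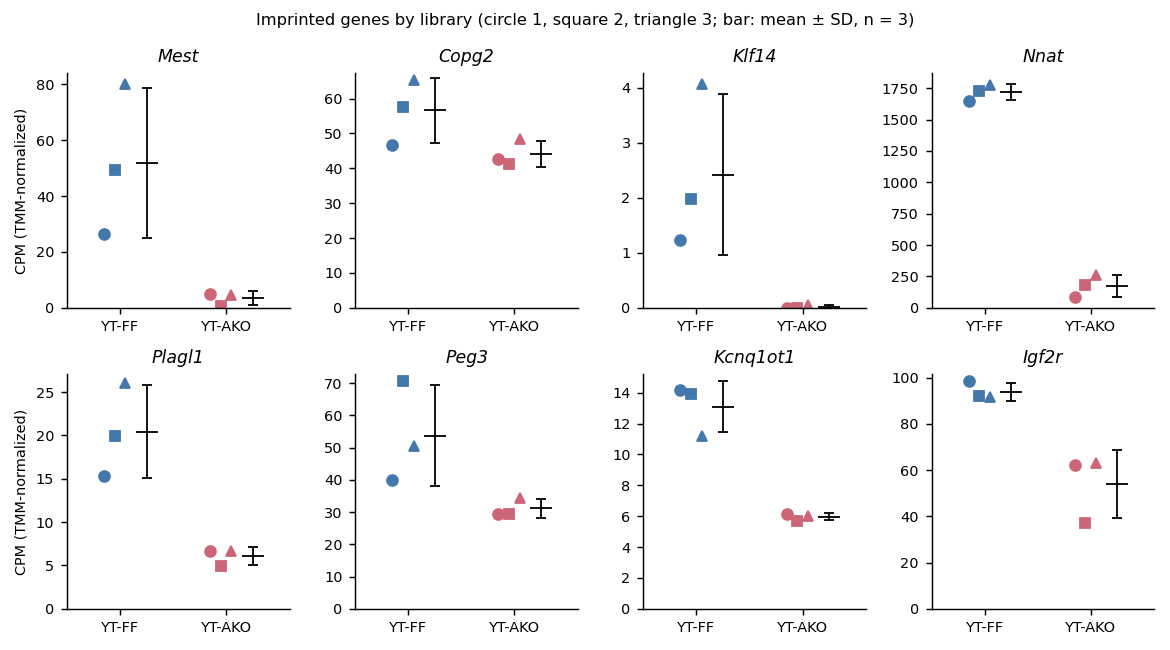
Levels of 8 imprinted genes in each library, in TMM-normalized CPM on axes that start at 0; blue marks are the 3 YT-FF libraries, red marks the 3 labelled YT-AKO, circle, square and triangle are replicates 1 to 3, and bars give the mean ± SD. The groups do not overlap for any gene but *Copg2*; *Nnat* runs from 1648.5 to 1779.2 CPM in YT-FF and from 85.9 to 262.1 CPM in the other group.

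Leaving aside these 3, 27 of the other 33 imprinted genes were tested. With edgeR's quasi-likelihood test, adjusted over all 16807 tested genes, 4 were lower in the YT-AKO-labelled libraries (14.8%), 0 were higher and 23 did not pass. Over all tested genes 21.6% were called, 9.01% lower and 12.6% higher. Counts of such size are read against that background: a share of 14.8% of 27 genes is 4 genes, and the median log2 fold change of the 27 was -0.01 against -0.02 over all tested genes. At an unadjusted p under 0.05, 4 of the 27 were higher and 6 lower, against 22.2% and 18.6% of all tested genes, and DESeq2 called 1 higher, *Snrpn*. In 7 of the 27 the YT-AKO-labelled libraries were all below YT-FF (25.9%, against 25.8% of all tested genes), and in 3 they were all above (11.1%, against 25.7%). No member was called in either direction without YT-FF 1 or without YT-FF 2, when at most 2 of all genes were called. In each of these fits 5 of the 27 were lower at an unadjusted p under 0.05, against 11.9% and 11.7% of all tested genes. Without YT-AKO 2, 5 of the 27 were called lower, the fifth being *Impact*, and 3 higher (*H19*, *Gnas* and *Trappc9*), in a fit that called 14% of all genes lower and 16.9% higher.

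By parental copy, 14 of 19 paternally expressed genes other than *Mest* and *Nnat* were tested. Of these 14, 3 were called lower (21.4%, against 9.01% of all tested genes), and their median log2 fold change was -0.19. Of 13 maternally expressed genes other than *Klf14*, 12 were tested and 1 was called lower (8.33%), with a median of 0.32. *Gnas*, which uses both copies through several promoters, was the remaining gene. With the length correction, only *Plagl1* of the genes called lower kept its call. The difference between the copies was not tested, and the lead trio itself held 2 paternally and 1 maternally expressed genes.

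**Figure D2:**
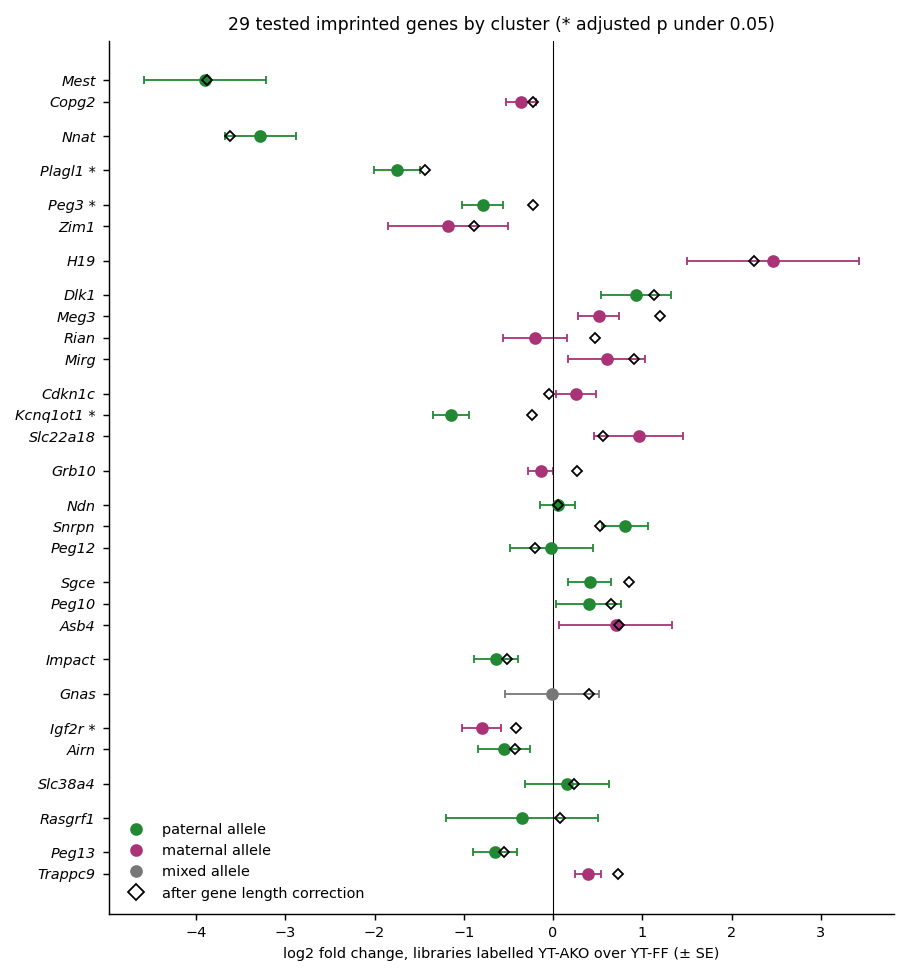
Log2 fold change of the YT-AKO-labelled libraries over YT-FF (filled circles, ± SE) for the 29 tested imprinted genes other than *Klf14*, grouped by cluster and coloured by the copy expressed; open diamonds give the value after correction for gene length, and stars mark an edgeR adjusted p under 0.05 (no star is used for *Mest* and *Nnat*, chosen from their values). *Mest* (-3.90), *Nnat* (-3.28) and *Plagl1* (-1.75) stand to the left, and *Peg3* and *Kcnq1ot1* move to -0.23 and -0.24 after the correction.

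*Plagl1* (chr10:13060504-13131694), a paternally expressed zinc finger transcription factor that restrains cell division, showed the largest fall among the 27 genes. Its level was 15.3, 19.9 and 26.0 CPM in YT-FF and 6.68, 4.89 and 6.61 CPM in the YT-AKO-labelled libraries. It fell by 1.75 on the log2 scale (SE 0.259, edgeR adjusted p = 0.0171), and by 1.43 after the correction for gene length (adjusted p = 0.0211). It was the only one of the 4 called genes that kept its call under that correction. Around *Plagl1*, 9 of 16 other genes within 500 kb were tested, with a median log2 fold change of 0.27. *Utrn*, the dystrophin relative utrophin, fell by 1.08 and *Phactr2* by 0.68 on the log2 scale, and *Sf3b5*, a splicing factor subunit, rose by 1.37. With the length correction *Sf3b5* passed (1.43), and *Utrn* (-0.48, edgeR adjusted p = 0.0599) and *Phactr2* (-0.18, adjusted p = 0.423) did not.

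**Figure D3:**
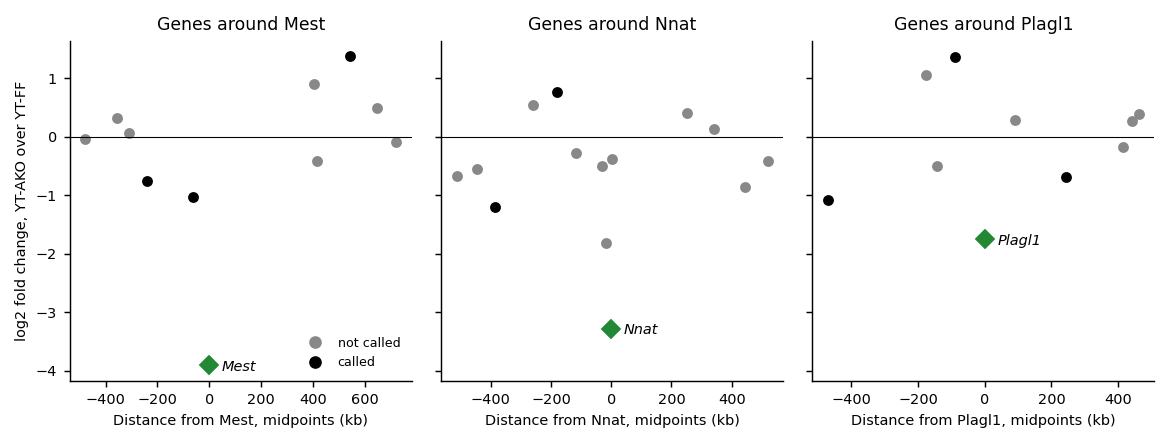
Log2 fold change of tested genes within 500 kb of the *Mest* to *Klf14* interval, of *Nnat* and of *Plagl1*, by distance in kb between gene midpoints. Green diamonds are *Mest*, *Nnat* and *Plagl1*. Black circles are neighbours with an edgeR adjusted p under 0.05 and grey circles the other neighbours. Neighbours are genes outside the 36 imprinted genes, so *Klf14* and *Copg2* are not drawn. *Mest* at -3.90, *Nnat* at -3.28 and *Plagl1* at -1.75 lie below every neighbour drawn in their own windows. *Klf14*, in the window of *Mest*, fell further than *Mest* (ratio of summed counts 119.0). Those neighbours range from -1.81 (Gm14286, around *Nnat*, not called) to 1.38. *Mest* and *Nnat* were chosen from their values, so their place below the neighbours is a description.

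In the *Peg3* cluster (chromosome 7), *Peg3*, a paternally expressed zinc finger protein, was at 40.0, 70.7 and 50.5 CPM in YT-FF and at 29.4, 29.5 and 34.5 CPM in the YT-AKO-labelled libraries. It fell by 0.79 on the log2 scale (SE 0.225, edgeR adjusted p = 0.0438), and after the correction for length the value was -0.23 (adjusted p = 0.482). *Usp29*, a deubiquitinase gene that starts 147 bp away on the other strand, had 2 counts in 1 YT-FF library and 0 in all others. Its neighbour *Zim1*, a maternally expressed zinc finger gene, was counted at 34, 33 and 40 in YT-FF, against 15, 2 and 20 in the other group, without overlap. *Zim1* did not pass the test (log2 fold change -1.18, SE 0.671, edgeR adjusted p = 0.219).

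*Kcnq1ot1*, the paternally expressed antisense RNA that silences its cluster on chromosome 7, was at 14.2, 13.9 and 11.2 CPM in YT-FF and at 6.15, 5.71 and 6.02 CPM in the YT-AKO-labelled libraries. It fell by 1.14 on the log2 scale (SE 0.200, edgeR adjusted p = 0.0185). At 93092 bases it is far longer than a usual transcript, and after the length correction its value was -0.24 (adjusted p = 0.483). Neither *Cdkn1c* nor *Slc22a18*, maternally expressed genes of the cluster, passed the test, while *Tssc4*, a cluster gene of the wider list below, was called higher. *Cdkn1c*, the cell cycle inhibitor p57, was at 17.5, 18.3 and 21.4 CPM in YT-FF and 23.2, 28.7 and 16.8 CPM in the other group (log2 fold change 0.26, adjusted p = 0.405, -0.05 after the length correction). *Slc22a18*, a transporter, had 3.15, 3.03 and 5.60 CPM against 3.89, 13.6 and 5.43 CPM, so its log2 fold change of 0.96 (adjusted p = 0.184) became 0.25 without YT-AKO 2. *Phlda2*, a growth inhibitor of the placenta, had 1 count in all 6 libraries together.

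*Igf2r*, the maternally expressed receptor that carries IGF2 to the lysosome, was at 98.5, 92.0 and 91.6 CPM in YT-FF and at 62.1, 37.2 and 63.2 CPM in the YT-AKO-labelled libraries. It fell by 0.80 on the log2 scale (SE 0.220, edgeR adjusted p = 0.0404), with YT-AKO 2 the lowest library, and by 0.59 without that library (adjusted p = 0.00816). The value after the length correction was -0.41 (adjusted p = 0.106). *Airn*, the antisense RNA that silences the paternal copy of *Igf2r*, was at 9.27, 8.99 and 5.30 CPM against 5.23, 6.30 and 4.60 CPM. These overlapped (log2 fold change -0.55, adjusted p = 0.188), so neither member of the pair was higher in the YT-AKO-labelled libraries.

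**Figure D4:**
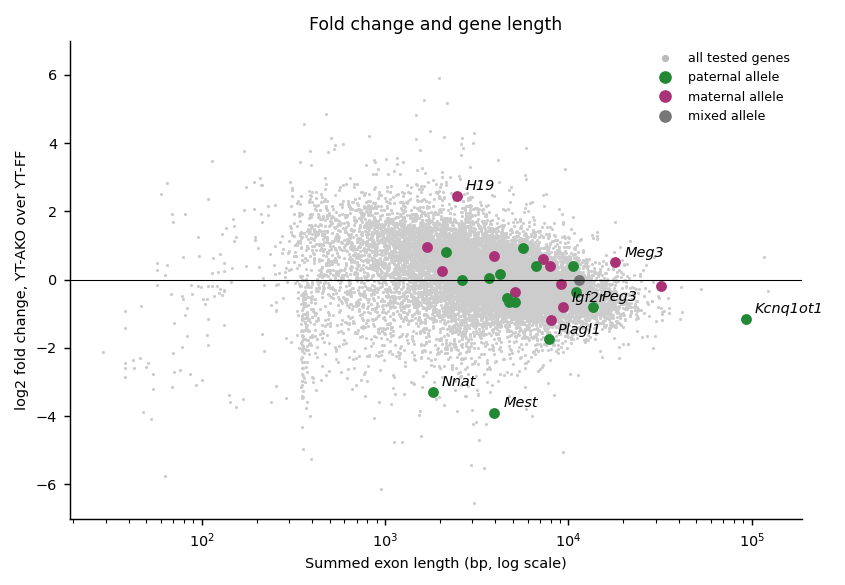
Log2 fold change of the YT-AKO-labelled libraries over YT-FF against summed exon length in bp (log axis) for all 16807 tested genes (grey) and the 29 tested imprinted genes other than *Klf14* (coloured by the copy expressed). The grey cloud tilts from a median of 0.57 under 2 kb to -0.54 from 10 kb; *Mest* and *Nnat* lie well below it, and *Kcnq1ot1* lies at its long end.

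*Igf2*, the fetal growth factor, was almost silent in this adult tissue, with 5, 0 and 3 counts in YT-FF and 3, 0 and 1 in the other group. Other annotated exons cover 64.5% of its exon length, and fragments there were not counted. *H19*, the maternally expressed non-coding RNA of the same domain, was counted at 64, 28 and 28 in YT-FF, against 434, 36 and 41 in the YT-AKO-labelled libraries. The high value belonged to YT-AKO 1 alone, and the groups overlapped. The log2 fold change of 2.46 (SE 0.964, edgeR adjusted p = 0.0973) became 0.34 without that library (adjusted p = 0.612). Markers of skeletal muscle, where *H19* is known to remain expressed after birth, summed to 3132.4 CPM in YT-AKO 1 and to 116.4 to 449.1 CPM in the other 5 libraries. Their part in the *H19* value was not tested.

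In the *Dlk1* to *Meg3* cluster (chromosome 12), none of the 4 genes passed the test without the length correction. *Dlk1*, a preadipocyte factor that restrains fat cell formation, was low, with 1.11, 1.36 and 2.11 CPM in YT-FF and 2.44, 3.77 and 2.48 CPM in the YT-AKO-labelled libraries. Those groups did not overlap, yet the difference missed the threshold (log2 fold change 0.93, SE 0.388, edgeR adjusted p = 0.114). *Meg3*, the first of its maternal non-coding RNAs, was at 63.2, 75.5 and 57 CPM in YT-FF and 80.4, 123.0 and 75.3 CPM in the other group. Its log2 fold change of 0.51 (SE 0.226, adjusted p = 0.131) became 1.20 after the length correction, when it passed (adjusted p = 0.0419). *Rian*, downstream on the same strand and the host of small nucleolar RNAs, was, without correction, below 0 in log2 fold change, at 26.0, 32.1 and 26.6 CPM against 36.8, 12.1 and 25 CPM. *Mirg*, the host of a microRNA cluster, was at 1.18 to 1.83 CPM against 1.30 to 3.19 CPM. *Rian* (log2 fold change -0.20, 0.47 after the length correction and 0.13 without YT-AKO 2) and *Mirg* (0.60) did not pass the test.

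In the *Snrpn* to *Ndn* domain, which is the mouse counterpart of the Prader-Willi region, *Snrpn* had the smallest p. This spliceosomal protein gene was at 5.06, 6.32 and 9.26 CPM in YT-FF and at 11.6, 12.3 and 12.2 CPM in the YT-AKO-labelled libraries. The groups did not overlap, and the log2 fold change of 0.81 (SE 0.258) missed the threshold with edgeR (adjusted p = 0.0584) and passed it with DESeq2 (adjusted p = 0.0352). *Snrpn* and *Snurf* are made from one transcript, so the counter could assign nothing to *Snurf*, whose 216 exon bases all lie within *Snrpn*, and the 0 counts listed for *Snurf* carry no information. *Ndn*, the growth suppressor necdin, was at 32.4 to 50 CPM against 36.7 to 45.0 CPM (log2 fold change 0.05). *Peg12* was near 1 CPM in both groups (0.658 to 1.23 against 0.767 to 1.35 CPM), and *Magel2*, a relative of *Ndn*, had 0 counts in every library, which allows up to 0.128 to 0.177 CPM. With edgeR, *Snrpn*, *Ndn* and *Peg12* did not pass the test, whereas *Atp10a*, a gene of the same region in the wider list below, was called lower.

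On the proximal part of chromosome 6, *Sgce* and *Peg10*, which start 99 bp apart on opposite strands, and *Asb4* were above 0 in log2 fold change (0.41, 0.40 and 0.70) and overlapped between the groups. *Sgce*, a sarcoglycan, was at 33.9, 32.9 and 56.9 CPM in YT-FF and 52.5, 49.4 and 61.8 CPM in the YT-AKO-labelled libraries. *Peg10*, a gene derived from a retrotransposon, was at 2.85 to 3.64 CPM against 2.95 to 6.67 CPM. *Asb4* stayed below 1 CPM in all libraries.

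*Peg13* and *Trappc9* share one locus on chromosome 15 and had fold changes of opposite sign, a difference that was not tested. *Peg13* is a paternally expressed non-coding RNA inside *Trappc9*, whose product acts in vesicle traffic and which favours the maternal copy in brain. *Peg13* was at 90.3, 72.2 and 81.2 CPM in YT-FF and 56.4, 34.1 and 64.9 CPM in the YT-AKO-labelled libraries (log2 fold change -0.65, SE 0.245, edgeR adjusted p = 0.0878). *Trappc9* was at 49.9, 52.7 and 53.9 CPM in YT-FF and 61.5, 66.1 and 77.1 CPM in the other group (0.39, SE 0.150, adjusted p = 0.0936). Neither passed the test, and in both the groups did not overlap. Within a library, the counts of *Peg13* per count of *Trappc9* were 1.81, 1.37 and 1.51 in YT-FF and 0.916, 0.516 and 0.841 in the other group. *Trappc9* passed after the length correction (log2 fold change 0.73, adjusted p = 0.0297), whereas *Peg13* did not (-0.55, adjusted p = 0.106).

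Of the remaining genes, *Impact*, an inhibitor of the kinase GCN2, was at 55.1, 56.5 and 58.9 CPM in YT-FF and 42.2, 22.7 and 44.2 CPM in the YT-AKO-labelled libraries. It was even in YT-FF and without overlap, and missed the threshold (log2 fold change -0.64, SE 0.251, edgeR adjusted p = 0.0955; -0.40 and adjusted p = 0.0284 without YT-AKO 2). *Gnas*, the stimulatory G protein subunit that couples β-adrenergic receptors to cAMP, was at 84.5, 74.7 and 68.1 CPM in YT-FF and 99.5, 19.1 and 107.7 CPM in the other group. YT-AKO 2 alone was low, so the log2 fold change of -0.01 (SE 0.530, adjusted p = 0.993) became 0.45 without it (adjusted p = 0.0351). Other annotated exons cover 21.6% of the *Gnas* exon length. *Grb10*, an adaptor that dampens insulin and IGF1 receptor signals, was at 58.3, 64.0 and 67.9 CPM against 56.1, 58.8 and 58.0 CPM (log2 fold change -0.14, SE 0.139, adjusted p = 0.478). *Slc38a4*, an amino acid transporter (0.16), and *Rasgrf1*, an exchange factor for RAS (-0.35), overlapped between the groups. *Zdbf2* had 3 to 8 counts in YT-FF and 0 to 3 in the other group, too few to be tested.

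A wider list of 50 further imprinted genes, many of them in the same clusters, held 38 that were tested. Of these, 5 were higher (13.2%) and 4 lower (10.5%) in the YT-AKO-labelled libraries, with a median log2 fold change of -0.11, close to the shares over all tested genes. The genes higher were *Mcts2* (1.08), *Nap1l5* (1), *Pon3* (0.87), *Tssc4* (1.17) and *Commd1* (1.49). The genes lower were *Atp10a* (-0.98), *Jade1* (-0.79), *Inpp5f* (-0.69) and *Ppp1r9a* (-0.52). Single clusters held both directions: *Pon3*, an antioxidant esterase gene, and *Ppp1r9a* belong to the *Peg10* cluster and were called in opposite directions. After the length correction *Pon3* (0.83) and *Atp10a* (-0.81) of these 9 passed, the other 7 did not, *Ppp1r9a* was at 0.05, and *H13* (1.23), *Pon2* (0.88) and *Dcn* (0.59) then passed.

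Because *Igf2*, *Igf2r* and *Grb10* belong to the IGF and insulin pathway, 20 genes of it were read, of which 17 were tested, 3 were called higher and 3 lower (17.6% each, against 12.6% and 9.01% of all tested genes), with a median log2 fold change of -0.22. The ligand *Igf1* did not differ beyond its spread (229.0 to 278.7 CPM in YT-FF, 230.0 to 281.1 CPM in the YT-AKO-labelled libraries). Among receptors and their substrates, *Igf1r* fell by 0.82, *Igf2r* fell by 0.80 and *Irs2* fell by 1.20 on the log2 scale (edgeR adjusted p = 0.0264, 0.0404 and 0.0358). *Irs1* was at 20.4 to 33.5 CPM against 1.65 to 12.8 CPM, without overlap, and missed the threshold (log2 fold change -1.97, SE 0.602, adjusted p = 0.052). Of the binding proteins that hold IGFs in the extracellular space, *Igfbp4* (0.73), *Igfbp6* (1.39) and *Igfbp7* (0.86) rose. *Igfbp2* (0.81), *Igfbp3* (-0.23) and *Igfbp5* (-0.54) did not pass the test, and *Igfbp1* had 0 counts. After the length correction *Igfbp4* (0.82) and *Igfbp6* (0.96) passed, and *Igfbp7* (0.44), *Igf1r* (-0.21) and *Irs2* (-0.98, edgeR adjusted p = 0.0572) did not.

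*Mest* was also set beside 5 genes linked to the growth of fat depots, a list written with earlier results of these data known. The p-values of these 5 genes are therefore a description and no independent support. *Npr3*, the clearance receptor for natriuretic peptides, was at 262.7, 199.1 and 578.5 CPM in YT-FF and 11.8, 10.4 and 9.03 CPM in the YT-AKO-labelled libraries (log2 fold change -5.06, SE 0.446, edgeR adjusted p = 0.00729). *Bmp3*, a ligand of the BMP family, was at 31.0, 28.8 and 64.6 CPM against 9.81, 8.36 and 15.2 CPM (-1.90, SE 0.374, adjusted p = 0.0207). *Sfrp5*, a secreted WNT antagonist (-0.67, adjusted p = 0.133, and 0.0458 after the length correction), *Lep*, the leptin gene (-0.13), and *Cav1*, the caveolar coat protein gene (0.01), did not pass the test without that correction, and *Lep* and *Cav1* did not pass with it. YT-FF 3 was the highest YT-FF library for *Mest*, *Klf14*, *Npr3*, *Bmp3*, *Sfrp5*, *Lep* and *Cav1*, and it stood 1.54-fold, 1.68-fold, 1.67-fold and 1.56-fold above the YT-FF mean for the first 4. *Nnat* did not share that spread, at 0.959, 1.01 and 1.04 of its YT-FF mean. The order is not particular to these genes: the summed adipocyte markers were also highest in YT-FF 3. That sum was 17806.8 CPM, against 12281.8 and 12230.2 CPM in YT-FF 1 and YT-FF 2.

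**Figure D5:**
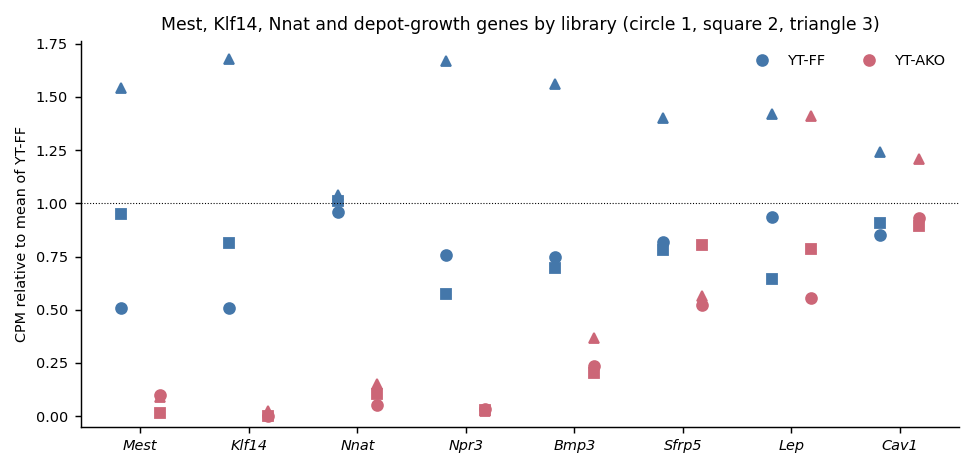
Level of each gene in each library, as CPM divided by the gene's mean over the 3 YT-FF libraries (blue, YT-FF; red, labelled YT-AKO; circle, square and triangle are replicates 1 to 3; the dotted line marks 1). YT-FF 3 is at 1.54 for *Mest*, 1.68 for *Klf14* and 1.67 for *Npr3*, while *Nnat* stays between 0.959 and 1.04 in YT-FF; *Lep* and *Cav1* overlap between the groups.

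Several marker lists of the tissue differed in summed level between the groups, and others overlapped. The called counts stand beside 12.6% of all tested genes called higher and 9.01% called lower. Adipocyte markers summed to 12230.2 to 17806.8 CPM in YT-FF and 20802.2 to 33056.8 CPM in the YT-AKO-labelled libraries (3 of 8 called higher), and none of the 8 was at 0 in the tissue the labels name. Brown and beige markers summed to 178.5 to 243.4 CPM against 1623.5 to 3460.8 CPM (5 of 8 higher). Progenitor markers summed to 614.5 to 720.5 CPM against 883.6 to 1001.5 CPM (2 of 8 higher, 1 lower). Those called higher were *Pi16* and *Ly6a*, 2 of the more abundant markers, while *Dpp4* was called lower, so the progenitor sum does not stand for all 8. B cell markers summed to 863.7 to 1039.4 CPM against 495.7 to 668.1 CPM (3 of 5 lower). Macrophage markers summed to 1046.8 to 1224.6 CPM against 1387.6 to 1690.6 CPM (0 of 6 called). Among these 6, only *Lyz2*, the highest, was without overlap (718.2, 819.0 and 699.5 CPM against 948.2, 1340.6 and 933.8 CPM). The other 5 overlapped, so the macrophage sum follows *Lyz2*. The sums overlapped for endothelial markers (633.5 to 681.0 CPM against 568.3 to 889.0 CPM), T cell markers (274.9 to 424.8 CPM against 235.3 to 563.9 CPM), Schwann cell markers (270.4 to 334.6 CPM against 216.8 to 330.1 CPM) and fibroblast markers (4394.8 to 5561.0 CPM against 5418.0 to 8590.9 CPM). Neuronal markers were low, at a sum of 9.72 to 10.7 CPM in YT-FF, and every YT-AKO-labelled library lay above that range, up to 17.8 CPM. Of these 6 markers, *Uchl1* was called higher (log2 fold change 0.88, edgeR adjusted p = 0.0455), and *Th* and *Dbh* were at 0 in all 6 libraries. Epithelial markers were low and their sums overlapped (3.65 to 5.09 CPM against 3.84 to 4.88 CPM), with *Krt5* at 0 in all 6 libraries. The part of these cell types in the values of *Mest*, *Nnat*, *Klf14* and the other imprinted genes was not tested.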

How the data were processed

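Counts of 6 scWAT libraries (3 YT-FF, 3 YT-AKO) were grouped by the genotype in the labels. The authors mapped paired-end reads to mm10 with HISAT2 and counted them with featureCounts 2.0.1 on GENCODE vM25, and the deposited values are raw counts per gene, without strand and without fragments that overlap several genes. Symbols were matched for 55141 of 55401 genes; 260 were unmatched. Totals were 17740987 to 21838493 per library. Intervals and floors (3 counts) cover counting error only.

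The members and lists were chosen with earlier results of these data known. Genes were tested in R 4.3.3 with edgeR 4.0.16: TMM, filterByExpr (minimum count 10, total 15), quasi-likelihood test, Benjamini-Hochberg adjustment over 16807 genes, called at an adjusted p under 0.05. The authors' methods name DESeq2; DESeq2 1.42.0 was an alternative, as were library totals alone, no filter, the replicate number as a block, a length correction by spline (6 degrees of freedom) and each library left out. TPM used summed exon lengths. All members are named, and beside them genes of the lists and called neighbours. The fit was tested on simulated data. Start windows came from RefSeq, and motifs were searched on both strands.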

Additional observations from a re-analysis of the deposited data

How the results depend on the processing

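*Mest* and *Nnat* stayed lower in the YT-AKO-labelled libraries under every alternative run. Of the other imprinted genes 4 were called lower and 0 higher. With the replicate block 0 of them were called lower (6 at an unadjusted p under 0.05, as were 16.1% of all tested genes). With the gene length correction 1 was called lower (*Plagl1*), and with both 0 (4 unadjusted, against 11.6% of all tested genes). With 1 library left out 0 to 5 were called lower (2 without YT-FF 3, and 0 without YT-FF 1 or YT-FF 2). The count of higher genes was 1 with DESeq2 (*Snrpn*), 1 with no filter (*H19*), 2 with the length correction (*Meg3*, *Trappc9*) and 0 to 3 with 1 library left out (1 without YT-FF 3, 3 without YT-AKO 2). The labels do not say that the replicate numbers pair the libraries. Same-numbered libraries correlated at 0.126, -0.118 and -0.0893 in their deviations from the group means, and differently numbered ones at -0.14 to 0.16. So few libraries cannot exclude a pairing. For the other imprinted genes, the median log2 fold change of -0.01 became -0.27 with library totals alone and 0.23 with the length correction. It was 0.16 with length and block, and -0.11 to 0.08 with 1 library left out. Library totals alone moved the median of all genes from -0.02 to -0.34. Over all genes, 2121 were called higher and 1515 lower; the numbers were 1137 and 2828 with library totals alone, 24 and 9 with the replicate block, 59 and 22 with length and block, and 0 to 2925 and 0 to 2424 with 1 library left out (none without YT-FF 1, with 4665 genes at an unadjusted p under 0.05; 0 and 2 without YT-FF 2; 704 and 528 without YT-FF 3; 895 lower without YT-AKO 3). The length correction left 763 lower. The causes were not tested.

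Values that changed sign belonged to genes that did not pass the test: with library totals alone *Cdkn1c* (-0.08), *Ndn* (-0.27) and *Slc38a4* (-0.16); with the length correction, and then with the replicate block added, *Rian* (0.47 and 0.42), *Cdkn1c* (-0.05 and -0.07), *Grb10* (0.27 and 0.27), *Gnas* (0.40 and 0.16) and *Rasgrf1* (0.08 and 0.10); and with 1 library left out *Gnas* (-0.35 to 0.45), *Ndn* (-0.08 to 0.26), *Peg10* (-0.02 to 0.62), *Peg12* (-0.33 to 0.17), *Rasgrf1* (-1.40 to 0.02), *Rian* (-0.60 to 0.13) and *Slc38a4* (-0.40 to 0.50). Of 322 values with an adjusted p for the 27 tested genes, 263 kept direction and side of the threshold, 23 lost the call, 9 gained it and 27 changed sign. Depth limits *Klf14*, *Usp29*, *Igf2*, *Phlda2*, *Magel2* and *Zdbf2*.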
